A study of Arabidopsis thaliana with 6 samples.

Results

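Transcripts of 10 nuclear genes for photosynthetic carbon fixation were followed in dark-grown Arabidopsis thaliana seedlings: the Rubisco small subunit genes RBCS1A, RBCS1B, RBCS2B and RBCS3B, the Rubisco activase gene RCA, and the Calvin cycle enzyme genes PRK, GAPA, GAPB, SBPASE and CFBP1. They were picked by locus, and all 10 were among the 24193 genes of the deposited table. Whole seedlings of Col-0 (wt, the control) and of lon1-1, which carries a mutation in LON1 (a protease of the mitochondrial matrix), had spent 6 days in darkness, and each genotype had 3 libraries of ribosome-depleted, strand-preserving RNA described as independent biological replicates. No agent or transgene is named for either genotype, and the kind of lesion in lon1-1 is not given in the sources used here. The genotype field reads Col-0 for all 6 libraries, so genotype was taken from the sample titles.

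The Calvin cycle fixes carbon dioxide in the chloroplast stroma. Rubisco, built of a plastid-encoded large subunit and nuclear-encoded small subunits, joins carbon dioxide to ribulose bisphosphate, phosphoglycerate kinase and the GAPA/GAPB glyceraldehyde phosphate dehydrogenase reduce the product with ATP and NADPH, and the remaining enzymes rebuild the acceptor. In angiosperms these genes are known for strong induction by light, and in seedlings that grow in darkness the plastids are etioplasts, which do not photosynthesise.

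Levels are in FPKM, which divides the fragments of a gene by its transcript length and by the size of the library, so genes may be compared per length. Library depth was estimated from the spacing of low values at 32250000 to 35250000 fragments, and at that depth the values of the 10 genes stand for between 208 fragments (RBCS1B in lon1-1 replicate B) and 48721 (RBCS1A in wt replicate A). LON1 (AT5G26860) was at 4.69 FPKM in wt and 2.69 in lon1-1 on average, and no lon1-1 library reached a wt library. Of 18308 genes tested with limma, 77.0% changed at an adjusted p threshold of 0.05, 32.3% lower and 44.7% higher in lon1-1. That split depended on scaling, with 5922 lower and 8182 higher genes as deposited, 7034 and 6950 after median-ratio scaling, and 5357 and 8929 as TPM. By the stricter measures 7.69% were lower and 8.33% higher by more than 1.5-fold in limma's treat test, and 4.76% passed the threshold with a log2 fold change of -1 or less. The median log2 fold change of all tested genes was 0.08, and it lay between -0.00243 and 0.13 under the other scalings. Transcripts of listed root markers, not all of which need be root-specific, were detected. Of 12 tested root markers 9 rose and 2 fell, and WOX5, PLT1 and PLT2, markers of the root stem cell niche, were under 1 FPKM and not tested. The 15 root markers summed to 3264.2 to 3515.8 FPKM in wt and 5163.4 to 5435.3 in lon1-1, most of it PYK10. Without PYK10 the other 14 summed to 341 to 369.5 FPKM in wt and 283 to 307 in lon1-1. Most of that sum was CASP1, an endodermis gene, which fell from 271.6 ± 13.1 to 153.0 ± 8.12 FPKM. By the test against 1.5-fold 7 of the 12 root markers were higher and 1, CASP1, lower, against 8.33% and 7.69% of tested genes. The 7 were RHD6, RSL4, EXPA7, EXPA18, PRP3, LRX1 and COBL9. Of 9 tested shoot and epidermis markers 5 rose and 3 (STM, AS1 and TMM) fell, and the stomatal regulators SPCH, MUTE and FAMA were under 1 FPKM. These 12 markers summed to 557 to 579 FPKM in wt and 699 to 798 in lon1-1, and without the epidermis genes CER6 and PDF1 to 63.9 to 66.5 and 64.2 to 65.1. In whole seedlings fewer cells of a type and less RNA per cell cannot be told apart, and the part of tissue makeup in the results that follow was not tested.

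All 10 genes fell in lon1-1, where 32.3% of all tested genes did. For each of them every lon1-1 library lay below every wt library, which held for 33.4% of tested genes. The fall passed the stricter test against 1.5-fold in 9 of the 10 (7.69% of tested genes), and 9 had a log2 fold change of -1 or less (4.76%); RBCS3B was the exception in both. Their summed level went from 2896.3 ± 24.3 FPKM in wt to 1062.2 ± 17.4 in lon1-1 (SD, n = 3 libraries each). Falls in mean FPKM ran from 1.63-fold in RBCS3B to 8.32-fold in RBCS1B, and the median log2 fold change was -1.62 against 0.08 for all tested genes. The limma p-values set the difference between genotypes against the spread between these libraries, moderated over all tested genes.

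**Figure D1:**
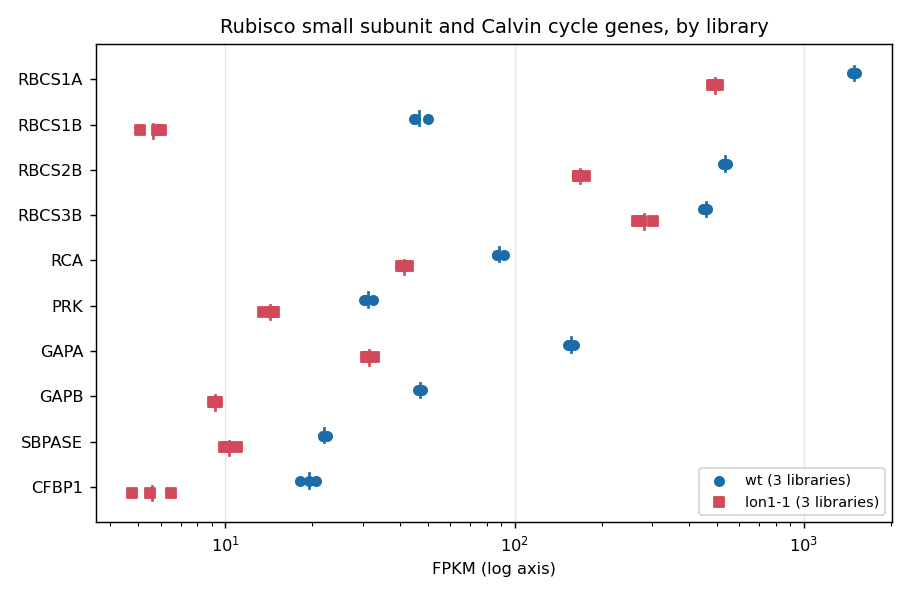
FPKM of the 10 genes (log axis) in each of the 3 wt libraries (blue circles) and 3 lon1-1 libraries (red squares), with vertical bars at the means. In each row the red squares lie to the left of the blue circles, from 483 to 505 against 1469 to 1522 FPKM in RBCS1A down to 4.75 to 6.46 against 18.1 to 20.6 in CFBP1.

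The small subunit genes held most of the signal. RBCS1A (AT1G67090, chromosome 1), the most highly expressed of the 10, had 1522, 1469 and 1486 FPKM in wt A, B and C and 505, 497 and 483 in the corresponding lon1-1 libraries. The genotypes were far apart, 3.02-fold in the means, with a log2 fold change of -1.59 (SE 0.0355, limma adjusted p = 2.79e-10). RBCS2B (AT5G38420) had 532, 527 and 542 FPKM in wt and 166, 166 and 176 in lon1-1, also far apart. It fell 3.16-fold (log2 fold change -1.65, SE 0.0341, limma adjusted p = 1.6e-10), close to RBCS1A.

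The remaining small subunit genes departed from that size in opposite directions. RBCS1B (AT5G38430), the least expressed of the family, had 45.0, 45.1 and 50.1 FPKM in wt and 5.81, 5.08 and 5.96 in lon1-1. Its highest lon1-1 value was below its lowest wt value by a wide margin, and it fell 8.32-fold (log2 fold change -2.85, SE 0.0621, limma adjusted p = 2.31e-10). RBCS3B (AT5G38410) had 449.97, 465 and 462 FPKM in wt and 274, 266 and 302 in lon1-1. The groups did not overlap, and lon1-1 replicate C was the nearest to wt. RBCS3B fell 1.63-fold (log2 fold change -0.71, SE 0.0468, limma adjusted p = 4.48e-07), and against a fold of 1.5 its adjusted p in limma's treat was 0.0774.

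The make-up of the small subunit pool therefore differed between the genotypes. The share of RBCS3B in the summed RBCS level was 17.7%, 18.5% and 18.2% in wt, and it was 28.8%, 28.5% and 31.3% in lon1-1. RBCS1A supplied 58.9% ± 0.654 in wt and 52.1% ± 1.85 in lon1-1, RBCS2B 21.1% ± 0.226 and 17.8% ± 0.36, and RBCS1B 1.85% ± 0.112 and 0.591% ± 0.0402 (SD, n = 3). Each of these shares separated the genotypes without overlap. A two-sided exact permutation test gave p = 0.1 for each, the smallest value that 3 libraries against 3 can give, and 0.12 after Benjamini-Hochberg adjustment over the 6 quantities compared (5 shares and the ratio of GAPA to GAPB). In wt RBCS2B stood above RBCS3B in each library, and in lon1-1 the order was the opposite in each library. The summed RBCS level was 2531.7 ± 22.3 FPKM in wt and 950.2 ± 17.0 in lon1-1.

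**Figure D2:**
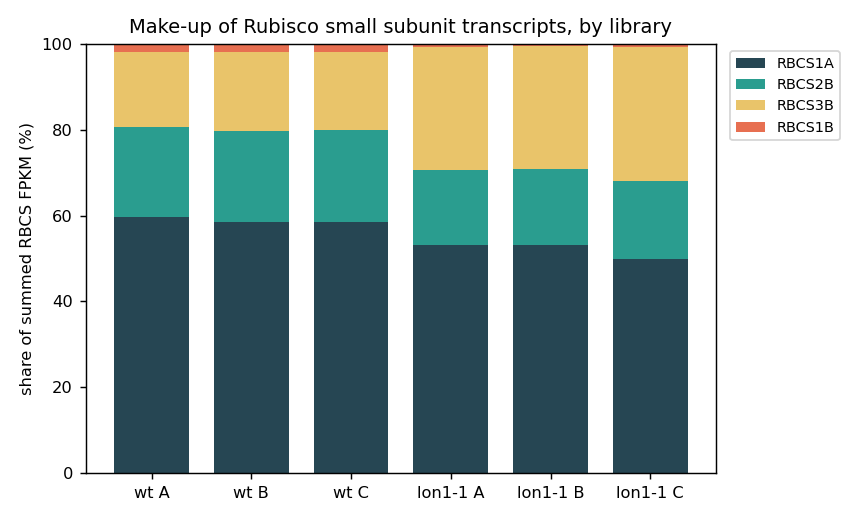
Share of each small subunit gene in the summed RBCS FPKM (%), as stacked bars for the 6 libraries. The RBCS3B segment takes 17.7% to 18.5% in wt and 28.5% to 31.3% in lon1-1, while the RBCS1A, RBCS2B and RBCS1B segments are all smaller in lon1-1.

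RBCS1B, RBCS2B and RBCS3B follow each other on chromosome 5, on the same strand and with no protein-coding gene annotated between them. Their similarity bears on how firmly their values can be told apart. Over 546 coding bases RBCS1B and RBCS2B differ at 15 positions, RBCS1B and RBCS3B at 18, and RBCS2B and RBCS3B at 17. RBCS1A is 89.9% to 90.1% identical to each of them. The coding bases 61 to 150, counted from the start codon in the TAIR10.1 annotation of RefSeq, are shown because they hold 10 of the 25 positions (capitals) at which the chromosome 5 genes do not all match.
RBCS1B: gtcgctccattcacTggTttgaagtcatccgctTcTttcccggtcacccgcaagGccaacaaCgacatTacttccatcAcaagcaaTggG
RBCS2B: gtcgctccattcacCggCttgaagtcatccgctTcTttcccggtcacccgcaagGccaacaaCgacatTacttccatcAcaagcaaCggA
RBCS3B: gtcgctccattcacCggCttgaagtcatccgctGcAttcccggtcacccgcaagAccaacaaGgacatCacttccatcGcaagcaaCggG

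Of the 100-base windows of the coding sequence, 134 of 447 in RBCS1B and 134 of 447 in RBCS3B recur exactly in a transcript of another RBCS gene. None do in RBCS1A or RBCS2B. With 50-base windows the shares are 51.9% in RBCS1B, 42.5% in RBCS3B, 38.0% in RBCS2B and 3.64% in RBCS1A. How reads that match more than 1 copy were divided, and the read length, are not given in the sources used here, so the separate values of RBCS1B, RBCS2B and RBCS3B, their shares and the order of RBCS2B and RBCS3B are uncertain to that extent. The chromosome 5 genes summed to 1027.4, 1037.5 and 1053.5 FPKM in wt and to 446, 437 and 484 in lon1-1, a total that does not depend on how reads were shared among those 3 copies, apart from their lengths. RBCS1A gives the complementary share, and the chromosome 5 genes together went from 41.1% ± 0.654 to 47.9% ± 1.85 of the RBCS total.

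The large subunit gene rbcL is plastid-encoded and lies outside the 10 genes. The annotated model had 7357.4, 8033.4 and 6598.7 FPKM in wt and 2540.9, 1975.4 and 2257.4 in lon1-1, with no overlap (log2 fold change -1.70, SE 0.0981, limma adjusted p = 1.69e-07). A gene model added by the authors and described as the Rubisco large subunit held 13541.5 ± 142 in wt and 3765.3 ± 216.5 in lon1-1. Summed over both models, rbcL stood at 8.18, 8.57 and 7.99 times the RBCS total in wt and at 6.38, 6.26 and 6.38 times in lon1-1. This ratio, examined after the values were seen, did not overlap between genotypes (exact permutation p = 0.1, the smallest possible). With the annotated model alone it was 2.89, 3.21 and 2.6 in wt and 2.67, 2.12 and 2.33 in lon1-1, which overlapped (exact permutation p = 0.2). With the added model alone it was 5.29, 5.36 and 5.4 in wt and 3.7, 4.14 and 4.05 in lon1-1, with no overlap. Whether the models share sequence, and how reads were divided between them, was not examined. Their separate values, their sum and these ratios are uncertain to that extent.

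Rubisco activase, the ATP-driven protein that removes inhibitory sugar phosphates from Rubisco, is encoded by RCA. RCA (AT2G39730) had 86.7, 87.3 and 91.7 FPKM in wt and 42.7, 40.7 and 40.6 in lon1-1. The ranges were well separated, and the fall of 2.14-fold (log2 fold change -1.08, SE 0.0356) had a limma adjusted p of 3.58e-09. Relative to the RBCS total, RCA was 3.4%, 3.48% and 3.61% in wt and 4.5%, 4.36% and 4.2% in lon1-1, higher in each lon1-1 library than in any wt library (exact permutation p = 0.1, the smallest possible, for a ratio taken after the values were seen).

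The chloroplast glyceraldehyde phosphate dehydrogenase, which carries out the reductive step, is made of GAPA and GAPB subunits. GAPA (AT3G26650) had 153, 156 and 160.2 FPKM in wt and 32.6, 30.8 and 30.6 in lon1-1. It fell 4.99-fold (log2 fold change -2.28, SE 0.0347, limma adjusted p = 2.57e-11). GAPB (AT1G42970), the subunit with a regulatory C-terminal extension, had 48.0, 46.2 and 47.0 FPKM in wt and 9.32, 9.05 and 9.15 in lon1-1. It fell 5.13-fold (log2 fold change -2.24, SE 0.0354, limma adjusted p = 3.25e-11). After RBCS1B, GAPA and GAPB had the largest falls of the 10 genes. The ratio of GAPA to GAPB was 3.19, 3.37 and 3.41 in wt and 3.50, 3.41 and 3.35 in lon1-1. These ranges overlapped, and the difference of 0.0939 between the mean ratios was smaller than the wt SD of 0.113 (exact permutation p = 0.5).

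Phosphoribulokinase makes the Rubisco substrate ribulose bisphosphate, and with GAPA/GAPB it is bound and held inactive in the dark by the small protein CP12. PRK (AT1G32060) had 32.5, 30.2 and 30.7 FPKM in wt and 14.8, 14.6 and 13.5 in lon1-1, clearly apart. It fell 2.18-fold (log2 fold change -1.07, SE 0.0455, limma adjusted p = 1.99e-08). The summed GAPA and GAPB level was 6.2, 6.69 and 6.75 times that of PRK in wt and 2.84, 2.74 and 2.94 times in lon1-1, lower in each lon1-1 library than in any wt library. This ratio too was taken after the values were seen, and its exact permutation p was 0.1. CP12-2 (AT3G62410) fell from 8.52 ± 0.291 to 1.97 ± 0.315 FPKM and CP12-1 (AT2G47400) from 21.8 ± 1.42 to 10.2 ± 0.924 FPKM (limma adjusted p = 4.05e-08 and 3.61e-07). CP12-3 (AT1G76560) had 4.09 to 4.95 FPKM in wt and 5.06 to 6.12 in lon1-1 and rose at an adjusted p of 0.0375 in limma, a call that was lost in treat against 1.5-fold, with no filter on low values, with median-ratio or upper-quartile scaling, and without wt replicate A or C.

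The bisphosphatases that commit carbon to regeneration of the acceptor both fell. SBPASE (AT3G55800), sedoheptulose bisphosphatase, had 22.4, 21.7 and 21.7 FPKM in wt and 10.9, 9.88 and 10.1 in lon1-1. Its fall was 2.13-fold (log2 fold change -1.02, SE 0.0455, limma adjusted p = 2.86e-08), near that of PRK and RCA. The level of SBPASE relative to PRK was 0.705 ± 0.015 in wt and 0.723 ± 0.038 in lon1-1, and that of RCA relative to PRK 2.85 ± 0.163 and 2.90 ± 0.104 (SD, n = 3), with overlapping ranges in both cases (exact permutation p = 0.5 and 0.6, computed after the values were seen). CFBP1 (AT3G54050, also HCEF1), the chloroplast fructose bisphosphatase, had 19.5, 20.6 and 18.1 FPKM in wt and 6.46, 4.75 and 5.47 in lon1-1. It was the least even of the 10 genes among the lon1-1 libraries, with an SD of 0.859 around a mean of 5.56, yet its groups stayed apart. It fell 3.49-fold (log2 fold change -1.64, SE 0.0876, limma adjusted p = 9.83e-08).

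Ranked by level, the wt order was RBCS1A, RBCS2B, RBCS3B, GAPA, RCA, GAPB, RBCS1B, PRK, SBPASE and CFBP1, and GAPB and RBCS1B were the only neighbours whose libraries overlapped. In lon1-1 the order was RBCS1A, RBCS3B, RBCS2B, RCA, GAPA, PRK, SBPASE, GAPB, RBCS1B and CFBP1, and there RBCS1B and CFBP1 were the only overlapping neighbours. RCA moved above GAPA, and PRK and SBPASE moved above GAPB.

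The other enzymes of the cycle did not move as a block. Of 12 tested, rbcL included, 7 fell and 4 rose, with a median log2 fold change of -0.26, where 32.3% of all tested genes fell and 44.7% rose. FBA1 (AT2G21330) and FBA2 (AT4G38970), plastid aldolases, fell from 21.7 ± 0.206 to 7.95 ± 0.401 FPKM and from 74.1 ± 1.69 to 40.0 ± 0.694 FPKM (limma adjusted p = 4.07e-09 and 7.11e-09). A further plastid aldolase gene, FBA3 (AT2G01140), chosen after its values were seen, went the other way, from 160.5 ± 5.91 to 233.4 ± 9.28 FPKM (limma adjusted p = 1.01e-06). TKL2 (AT2G45290), a transketolase, rose from 26.5 ± 0.627 to 50.8 ± 0.88 FPKM (limma adjusted p = 7.23e-09), while the more abundant transketolase gene TKL1 (AT3G60750) fell from 185.5 ± 0.835 to 168.6 ± 0.985 FPKM. RPI3 (AT3G04790), ribose phosphate isomerase, had 36.8 to 41.0 FPKM in wt and 37.1 to 38.9 in lon1-1 and did not pass (limma adjusted p = 0.419). Against a fold of 1.5, rbcL, FBA1, FBA2 and RPE, the ribulose phosphate epimerase gene, remained lower and TKL2 higher.

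Light switches several of these enzymes on by reduction of disulfides through ferredoxin-dependent thioredoxins. Among 12 CP12, thioredoxin and reductase genes 8 fell and 1, CP12-3, rose (median log2 fold change -0.39), against 32.3% and 44.7% of all tested genes. TRXF1 (AT3G02730), an f-type thioredoxin, fell from 5.17 ± 0.497 to 1.38 ± 0.127 FPKM, and TRXM1 (AT1G03680), an m-type, from 38.3 ± 0.572 to 20.4 ± 1.34 FPKM (limma adjusted p = 1.42e-07 and 9.35e-08). Among subunits or forms of the thioredoxin reductases, FTRA2 (AT5G08410) fell from 11.9 ± 1.08 to 8.0 ± 0.739 FPKM (limma adjusted p = 0.00014), and FTRB, FTRA1 and NTRC did not pass, with limma adjusted p of 0.0882, 0.232 and 0.0956. Of 12 tested genes for folding and assembly of Rubisco 6 fell and 2 rose, against 32.3% and 44.7% of all tested genes, and the median was -0.10. By the test against 1.5-fold 1 of the 12 was lower (7.69% of all tested genes), CPN10-2 (AT2G44650), a chloroplast co-chaperonin. CPN10-2 fell from 25.8 ± 0.772 to 14.9 ± 0.884 FPKM and RAF2 (AT5G51110), a Rubisco assembly factor, from 24.9 ± 2.25 to 15.3 ± 0.602 FPKM. CPN60B2 (AT3G13470) and CPN60B3 (AT5G56500), chloroplast chaperonin subunits, rose from 11.1 ± 0.388 to 17.4 ± 0.54 and from 13.4 ± 0.312 to 19.6 ± 1.02 FPKM.

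Enzymes that run the same reactions outside photosynthesis were mostly higher. Of 11 tested cytosolic and plastid glycolytic counterparts 9 rose and 1 fell (median log2 fold change 0.51), while 44.7% of all tested genes rose. In the same 9 every lon1-1 library lay above every wt library, which held for 45.7% of tested genes. GAPC1 (AT3G04120), cytosolic glyceraldehyde phosphate dehydrogenase, had 526, 535 and 547 FPKM in wt and 1300.8, 1270.8 and 1293.2 in lon1-1 (log2 fold change 1.26, limma adjusted p = 1.02e-09). Summed GAPC1 and GAPC2 stood at 6.34, 6.31 and 6.32 times the GAPA and GAPB sum in wt and at 55.2, 56.5 and 57.9 times in lon1-1 (exact permutation p = 0.1, examined after the values were seen). The cytosolic triose phosphate isomerase gene (AT3G55440) rose from 237.0 ± 7.57 to 416.4 ± 11.8 FPKM, and FBA8 (AT3G52930), a cytosolic aldolase, from 296.2 ± 6.41 to 443.4 ± 5.47 FPKM. FBA7 (AT4G26520), at low level, fell from 1.96 ± 0.311 to 0.977 ± 0.0709 FPKM. For fructose bisphosphatase the dominant transcript changed: the cytosolic gene (AT1G43670) had 10.9 to 11.1 FPKM in wt and 12.0 to 12.7 in lon1-1, which put it at 0.569 ± 0.0405 times CFBP1 in wt and 2.26 ± 0.307 times in lon1-1. By the test against 1.5-fold, GAPC1 and the cytosolic triose phosphate isomerase gene were higher (2 of 11, against 8.33% of tested genes).

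**Figure D3:**
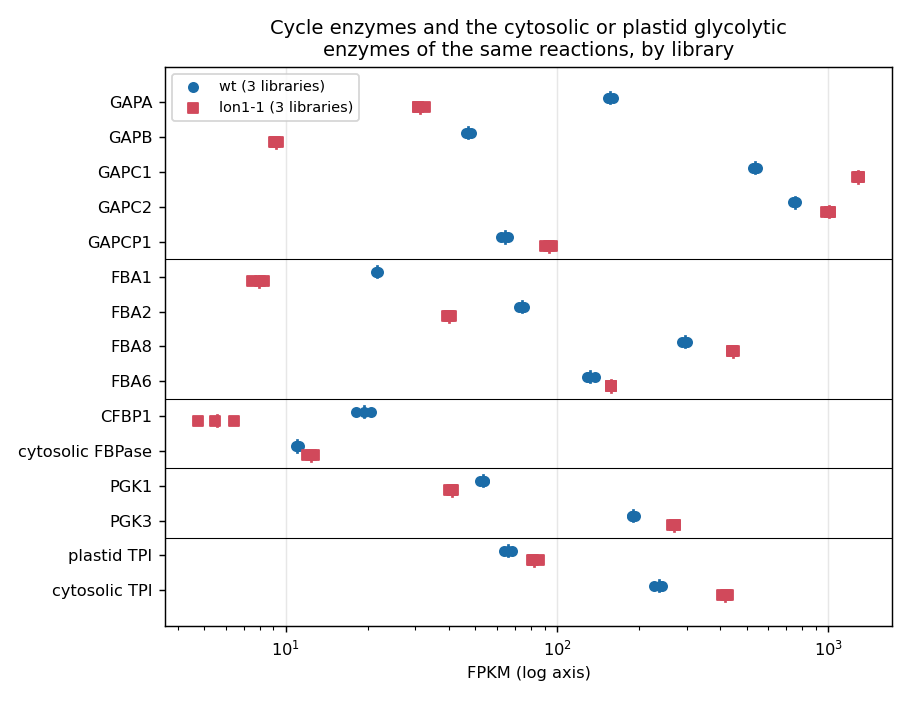
FPKM (log axis) of chloroplast cycle enzymes and of enzymes of the same reactions in the cytosol or in plastid glycolysis, in 3 wt (blue circles) and 3 lon1-1 libraries (red squares), with bars at the means; black lines part the reactions. GAPA and GAPB shift to the left while GAPC1 shifts to the right, and the cytosolic fructose bisphosphatase gene lies below CFBP1 in wt and above it in lon1-1.

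Of 9 tested genes that carry the products onward 5 rose and 3 fell (median log2 fold change 0.15), shares near those of all tested genes, of which 44.7% rose and 32.3% fell. By the test against 1.5-fold 2 of the 9 were higher and 3 lower, against 8.33% and 7.69% of tested genes. TPT (AT5G46110), which exports triose phosphate from the chloroplast, fell from 37.3 ± 0.913 to 15.1 ± 0.258 FPKM (limma adjusted p = 1.47e-09). APL1 (AT5G19220) and APL3 (AT4G39210), large subunits of the ADP-glucose pyrophosphorylase of starch synthesis, moved apart: APL1 fell from 5.62 ± 0.217 to 0.733 ± 0.0862 FPKM and APL3 rose from 3.80 ± 0.115 to 12.8 ± 0.659 FPKM (limma adjusted p = 4.83e-09 and 5.63e-09). SPS4F (AT4G10120), a sucrose phosphate synthase, fell from 4.23 ± 0.132 to 1.59 ± 0.0115 FPKM.

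Nuclear genes of the light reactions were lower throughout. All 20 light-harvesting and photosystem genes examined fell, where 32.3% of all tested genes did. All 20 passed the test against 1.5-fold (7.69% of tested genes) and had a log2 fold change of -1 or less (4.76%). Their median log2 fold change was -2.96, with a range from -5.08 to -2.08. For the 10 genes the median was -1.62 and the range -2.85 to -0.71. Of those 20, 11 fell by more than RBCS1B and 9 lay within the range of the 10 genes. These lists were compared by counts and medians, without a test. Among all tested genes 8.82% had a log2 fold change at or below that of RBCS3B, 1.57% at or below the median of the 10 genes, and 41 genes at or below that of RBCS1B. LHCB1.3, LHCB1.2, PSAG and LHCB2.1 had log2 fold changes of -5.08, -4.24, -3.72 and -3.56, the largest falls of the light-reaction genes on the log2(FPKM + 1) scale. In mean FPKM the order differed, with LHCB2.2 (22.9-fold) ahead of LHCB2.1 (16.3-fold) and PSAG (14.3-fold). Sequences within the LHCB1 and LHCB2 families were not compared. How far reads that match more than 1 copy bear on their separate values and order was not examined.

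**Figure D4:**
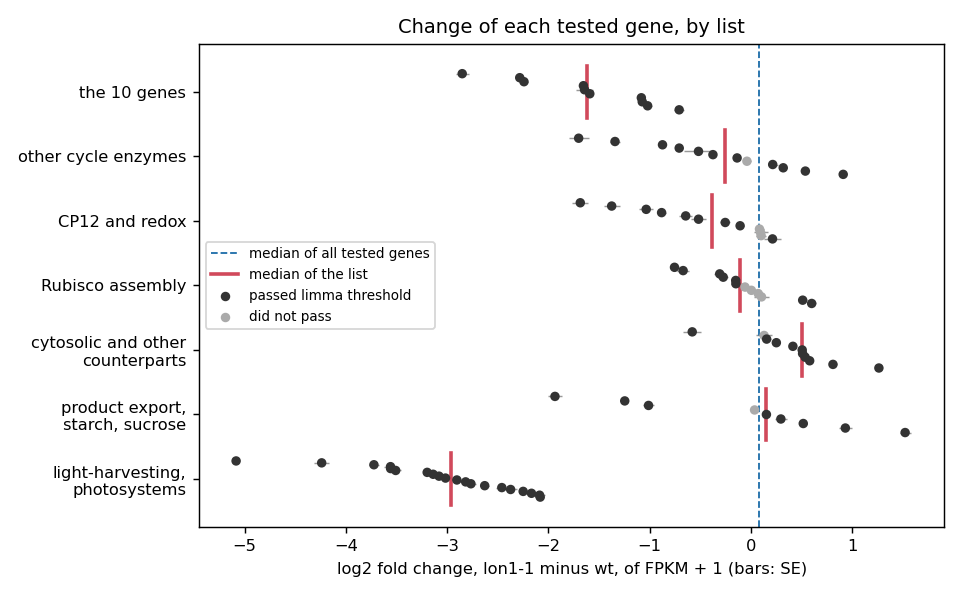
Log2 fold change (lon1-1 minus wt, of FPKM + 1) of each tested gene in 7 lists, with SE bars; black points passed the limma threshold, grey points did not, red bars are list medians and the dashed line is the median of all tested genes (0.08). The 10 genes lie between -2.85 and -0.71, the light-reaction genes between -5.08 and -2.08, and the cytosolic and other counterparts have their median at 0.51.

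Outside the lists, the genes whose profile over the 6 libraries came nearest to the median profile of the 10 genes were ACR9 (AT2G39570), AT4G19160, ACR11 (AT1G16880), RD28 (AT2G37180), an aquaporin gene, and the plastid gene petD, which encodes a subunit of the cytochrome b6f complex. Likeness was the root-mean-square difference of centred log2(FPKM + 1) values, which was 0.0365 to 0.0396 for these 5 genes. Among the 10 genes themselves it ran from 0.0365 in RBCS1A, 0.0757 in RBCS2B and 0.0931 in CFBP1 to 0.436 in RBCS3B and 0.649 in RBCS1B. ACR9 had 197.7, 193.0 and 194.5 FPKM in wt and 64.9, 63.4 and 64.3 in lon1-1.

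Upstream sequences of the 10 genes were searched because RBCS promoters are known for a light-response unit in which a G-box (CACGTG), bound by factors of the bZIP and bHLH families, lies between I-boxes (GATAAG). Both strands were searched in the 500 bases before the start codon, in the RefSeq annotation of TAIR10.1. The I-box was found in 9 of the 10 genes (SBPASE had none) and in 23.5% of 27443 nuclear protein-coding genes, and the G-box in 6 of the 10 (RBCS1A, RBCS2B, RBCS3B, RCA, SBPASE and CFBP1) and in 9.34%. Among the 20 light-reaction genes 14 held an I-box and 10 a G-box, and among the 12 counterparts none held an I-box and 2 a G-box. The GT-1 box core (GGTTAA) was in 3 of the 10 genes and 24.5% of all, and the evening element (AAAATATCT) in none of the 10 and 4.02% of all. The TATA box letters (TATAAA) were in 9 of the 10 and 64.3% of all, in GAPA and CFBP1 on the opposite strand only. A match of letters does not show that a factor binds there.

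**Figure D5:**
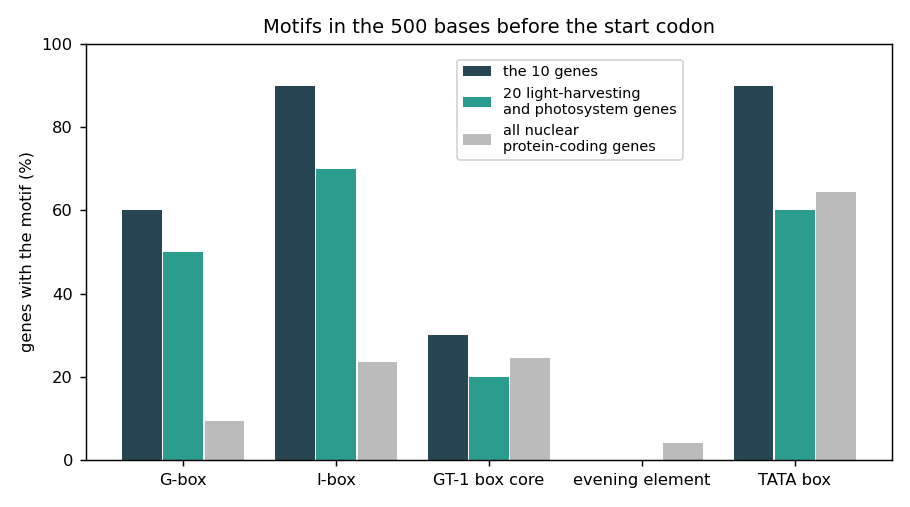
Share of genes (%) with each motif in the 500 bases before the start codon, on either strand, for the 10 genes, 20 light-harvesting and photosystem genes and all 27443 nuclear protein-coding genes. The G-box is in 6 and the I-box in 9 of the 10 genes, against 9.34% and 23.5% of all genes, while the evening element is in none of the 10.

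RBCS1B has I-boxes but no G-box in the 500 bases before the start codon, as have PRK, GAPA and GAPB. PRK holds a G-box farther upstream, 173 to 168 bases before its annotated 5′ end. RBCS1A, RBCS2B and RBCS3B carry the I-box and the G-box on the coding strand at nearly the same spacing. The stretches from the I-box to the G-box (both in capitals, 5′ to 3′ on the coding strand, which is the minus strand of the genome) are shown to make this arrangement visible. They lie 283 to 254, 239 to 211 and 240 to 212 bases before the start codon, at chr1:25049503-25049532, chr5:15382189-15382217 and chr5:15378518-15378546 in TAIR10.1.
RBCS1A: GATAAGattcatggaattatcttcCACGTG
RBCS2B: GATAAGattatggagttttctgcCACGTG
RBCS3B: GATAAGataatggagttttctgcCACGTG

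The annotated 5′ end lies 418 bases before the start codon in RBCS1A, 336 in RBCS3B, 165 in RBCS1B and 93 in RBCS2B, so this arrangement falls inside the annotated gene in RBCS1A and RBCS3B and upstream of it in RBCS2B. In the 250 bases before the annotated 5′ end, G-boxes were found in 3 of the 10 genes and 6.49% of all genes, and I-boxes in 3 and 12.3%. Those 250 bases are given for RBCS2B (chr5:15382072-15382321, minus strand), RBCS1B (chr5:15385321-15385570, minus strand) and CFBP1 (chr3:20016587-20016836, plus strand). RBCS2B shows a G-box between I-boxes, and CFBP1 has G-box, I-box and TATA box letters. In RBCS1B only TATA box letters and a GT-1 box core were found. The GT-1 box core, on the opposite strand at 184 to 179 bases before the annotated 5′ end, is not marked. The window ends at the annotated 5′ end, so I-boxes of RBCS1B across or past that end are left out. They lie 170 to 165 and 165 to 160 bases before the start codon. An I-box of CFBP1 at 119 to 114 bases before the start codon is cut likewise, as the annotated 5′ end lies at 114. Capitals mark matches to the G-box, I-box and TATA box letters on either strand. An I-box on the opposite strand reads CTTATC, and TATAAA there reads TTTATA. In these bases of RBCS1B and CFBP1 the TATA box letters were on the opposite strand only.
RBCS2B: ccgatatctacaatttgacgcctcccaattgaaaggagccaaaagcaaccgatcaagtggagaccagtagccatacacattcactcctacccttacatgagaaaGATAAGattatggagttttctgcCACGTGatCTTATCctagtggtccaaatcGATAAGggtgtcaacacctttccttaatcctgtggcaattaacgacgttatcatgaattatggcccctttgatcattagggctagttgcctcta
RBCS1B: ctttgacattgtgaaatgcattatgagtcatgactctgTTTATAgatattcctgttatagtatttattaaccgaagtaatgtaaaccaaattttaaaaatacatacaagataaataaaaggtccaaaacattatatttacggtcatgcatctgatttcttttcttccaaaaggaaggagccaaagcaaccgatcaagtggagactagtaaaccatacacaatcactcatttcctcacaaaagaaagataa
CFBP1: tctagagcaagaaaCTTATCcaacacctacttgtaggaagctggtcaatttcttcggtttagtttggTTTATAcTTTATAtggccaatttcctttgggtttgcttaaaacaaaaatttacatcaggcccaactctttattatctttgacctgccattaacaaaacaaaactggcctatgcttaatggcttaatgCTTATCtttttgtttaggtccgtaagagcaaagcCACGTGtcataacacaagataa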

How the data were processed

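RNA of 3 wt and 3 lon1-1 libraries was compared. The deposited table holds FPKM values of the authors, per gene and per library, to 2 decimals. HISAT2, Bowtie2, RSEM and the build TAIR10 are named in the submitters' processing notes without versions or roles. Of 44279 RefSeq transcripts in the table, 44263 carry the same accession version as in the TAIR10.1 annotation used here for loci and sequences. Fragment counts are not in the table. Depth was estimated from low values of short single-transcript genes, on a grid of 250000 fragments with 180 bases taken off each length. Between 94.0% and 99.0% of the values used then lay within 0.15 of a whole fragment. Depth and length offset were the pair on the grid that gave the largest such share.

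The 18308 genes that reached 1 FPKM in 3 or more libraries entered the fit on log2(FPKM + 1) with limma 3.58.1 in R 4.3.3 (empirical Bayes with a mean-variance trend, genotype as the only term, Benjamini-Hochberg adjustment over all tested genes, threshold 0.05). A log2 fold change is the lon1-1 mean minus the wt mean on that scale, which understates changes of low genes. Folds given as such are ratios of mean FPKM. Limma's treat tested against a fold of 1.5. The fit was tested on simulated data. Ratios within a library were compared by two-sided exact permutation tests. The 10 genes and the lists were chosen with earlier results of these data known. The naming rule took LON1, all 10 genes, rbcL, up to 4 changed genes per list with the largest absolute change, and the 5 nearest profiles. Others named were chosen after their values were seen. Sequences come from RefSeq, TAIR10.1, and were handled in Python 3.11.15 with Biopython 1.88. The main alternatives were another pseudocount, no filter on low values, other scalings, a replicate block and leaving out each library.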

Additional observations from a re-analysis of the deposited data

How the results depend on the processing

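All 10 genes remained lower under every alternative tried, and RBCS3B alone lost its call, in treat against 1.5-fold (log2 fold change -0.71, adjusted p = 0.0774). With each library left out in turn, limma called 13113 to 13347 genes changed, against 14104 with all. Under treat 2933 genes were called, 1525 higher and 1408 lower. Of all tested genes 8.33% were higher and 7.69% lower in that test. Higher and lower calls were 1 and 4 among 12 other cycle enzymes and 0 and 4 among 12 CP12 and redox genes. They were 0 and 1 among 12 Rubisco assembly genes, 2 and 0 among 11 counterparts, and 2 and 3 among 9 genes that use cycle products. CP12 and redox genes had 0 higher without a filter on low values and with median-ratio or upper-quartile scaling, 3 with TPM, and 0 to 1 with a library left out. Without the filter 2 counterparts were lower. The difference in the GAPA to GAPB ratio, 0.0939, turned to -0.0953 with 1 added to each FPKM, and lay between 0.0296 and 0.136 with a library left out. For these shifts the cause was not tested. The difference in the RBCS3B share was 10.54 to 11.92 percentage points with a library left out.

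The replicate letters did not pair the libraries: deviations of same-letter libraries correlated at 0.0604, 0.0171 and -0.0318. With the letter as a block limma called 14046 genes, all 10 genes among those lower, and no call of a gene named under the rule changed. Depth limits mainly RBCS1B, CFBP1 and the low genes of the lists. The marker sums without PYK10 or without CER6 and PDF1, and the ratios of each rbcL model alone, were chosen after seeing the data.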
